A study of Mus musculus with 12 samples.

Results

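The genes described here are the nuclear-encoded subunits of oxidative phosphorylation. They were taken as every row of the count table whose symbol begins with Nduf followed by a, b, c, s or v and a digit, is Sdha, Sdhb, Sdhc or Sdhd, begins with Uqcr, begins with Cox and a digit from 4 to 8, or begins with Atp5. This name rule took 84 of the 24062 genes in the table: 37 named for complex I, 4 for complex II, 8 for complex III, 18 for complex IV and 17 for complex V. Enough counts to be tested were present for 75 of them, with 35, 4, 8, 11 and 17 in complexes I to V.

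RNA was sequenced from CD4+ T cells of C57BL/6 mice that had been enriched by negative selection and sorted on GFP. GFP+ cells are called regulatory T cells (Treg) and GFP- cells conventional T cells (Tconv), as in the labels. Tumour-bearing (TB) mice had received 500000 TC-1 cells, a transplantable mouse lung epithelial tumour line, through the tail vein 3 weeks before. There were 6 groups of 2 libraries (n = 2 throughout): Treg and Tconv were each taken from 3 sites, namely the tumour of TB mice, their spleen, and normal mouse spleen. The labels do not say which gene drives GFP, whether animals were pooled, or how the replicates were obtained, and p-values here therefore reflect only how far the libraries of a group differ, which may be technical. T cells of the same organ without tumour were not analysed here, so tumour and organ cannot be told apart in any difference between tumour and spleen. Total counts ran from 18624132 to 24111546 per library. Foxp3, the transcription factor that defines Treg, was at 989 to 1246 CPM (counts scaled to library size by TMM) in the 6 Treg libraries and at 11.5 to 19.6 CPM in the 6 Tconv libraries. The tumour libraries also held RNA of other cells. The summed level of 9 macrophage and monocyte markers was 182 to 455 CPM in the 4 tumour libraries and 2.14 to 10.1 CPM in the 8 spleen libraries. For 5 fibroblast markers it was 192 to 452 CPM against 0.191 to 1.86 CPM, and for 7 lung epithelial markers 78.8 to 161 CPM against 2.0 to 28.3 CPM, with Sftpc at 0 in every spleen library. T cell markers summed to 3368 to 5128 CPM in all 12.

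Oxidative phosphorylation moves electrons from NADH (through complex I) and succinate (through complex II) to ubiquinone, then through complex III and cytochrome c to oxygen at complex IV, and the proton gradient built on the way drives ATP synthase, complex V. Complexes I, III, IV and V join subunits encoded in the nucleus with subunits encoded in mitochondrial DNA, while complex II is encoded in the nucleus alone. In T cells this pathway supports quiescent and memory cells and is a main energy source of Treg. The mitochondrially encoded subunits were not analysed here, so the values concern the nuclear side only, as RNA. In RNA of sorted populations, fewer cells of a type and less RNA per cell cannot be told apart.

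The symbols are older than current use in places. Ndufa4 carries a complex I name but its protein is now placed in complex IV. Cox7a2l is named for complex IV, and its protein has been described as a factor linking complexes III and IV into supercomplexes. Whether it has that role in the mouse strain used here was not examined. Atp5s and Atp5sl are now named Dmac2l and Dmac2 and are not ATP synthase subunits. Cyc1, Ndufab1 and Usmg5 are subunits that the name rule leaves out, and they are given with the other pathway genes.

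Of the 9 members without enough counts to be tested, most are forms known from other tissues. Cox4i2, the hypoxia-inducible lung form, had 0 to 2 counts per library, and Cox6a2 and Cox8b, heart and muscle forms, had 0 to 4 and 0 to 2. Cox7a1, another muscle form, had 1 to 12 counts and Cox6b2, a testis form, 3 to 11. Cox7b2 and Cox8c had no count in any of the 12 libraries, and Ndufa4l2 had 0 to 3. Ndufs5, a complex I subunit of all tissues, also had 0 counts in every library. Its annotated transcripts share 31.1% of their stretches of 50 bases with a second annotated gene. Several other ubiquitous members stood at very low counts and shared sequence with annotated copies: Cox7c with 6 to 42 counts and 27.9% of its stretches shared, Atp5l with 10 to 50 counts and 68.5% shared, and Ndufb4 with 43 to 92 counts and 37% shared. Atp5g2 had 3 to 20 counts with 14.8% shared. The sources used here do not state how reads that fit more than 1 gene were counted, so the levels of these genes are uncertain, and whether the shared sequence set them was not tested. Better counted members share sequence too: Atp5h (47.9%), Uqcrb (43.2%), Ndufs3 (35.8%), Ndufa12 (26.2%), Cox5b (25.9%), Ndufb9 (23.4%), Atp5f1 (23.2%), Atp5o (19.1%), Cox7a2l (17.7%, with Gm6969), Cox6c (13.9%), Cox6a1 (12.3%) and Uqcr11 (10.9%). The same limit applies to their values.

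Levels were divided by the length in kilobases of all annotated exons of a gene together. By that measure Atp5a1, the alpha subunit of ATP synthase, had the highest mean level at 266 CPM per kilobase. It was followed by Cox7a2l at 195, Cox6b1 at 191, Cox8a at 178 and Uqcrh at 176. Atp5b, the catalytic beta subunit of ATP synthase, stood at 172 and Cox4i1, the ubiquitous form of cytochrome oxidase subunit 4, at 164. This order depends on the length used, since single transcripts are shorter than all exons together to differing degrees. The exons of Atp5b total 4.237 kb and its longest coding transcript has 1916 bases. For Atp5a1 these are 3.135 kb and 2674 bases. The mean of Cox7a2l joins lower values in Treg and higher ones in Tconv, described with the comparisons of the cell types.

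Each complex had its highest summed level in Tconv of normal spleen, except that with library totals in place of TMM scaling complex I was at 2150 CPM there and 2156 CPM in normal spleen Treg. The sum over all members there was 8336 ± 152 CPM (SD, n = 2). It was 7671 ± 221 CPM in Treg of normal spleen, 7060 ± 358 CPM in tumour Treg, 6995 ± 190 CPM in tumour Tconv, 6988 ± 332 CPM in Tconv of TB spleen and 6235 ± 107 CPM in Treg of TB spleen. The libraries of tumour Treg, tumour Tconv and TB spleen Tconv overlapped (6753 to 7313 CPM), so these groups did not differ beyond their spread. The 2 libraries of TB spleen Treg, at 6311 and 6159 CPM, were below all 10 others. With library totals they were at 6695 and 6613 CPM and overlapped those of the tumour (6495 to 6989 CPM). Complex V made up the largest share of the sum, with 3191 ± 53.7 CPM in normal spleen Tconv and 2292 ± 40.3 CPM in TB spleen Treg (n = 2 each). By single genes, 42 of the 75 tested members were highest in Tconv of normal spleen and 39 were lowest in Treg of TB spleen. The same shares over all tested genes were not counted, so whether these numbers are unusual is not known. These sums and counts are descriptions, and the tests follow gene by gene.

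**Figure D1:**
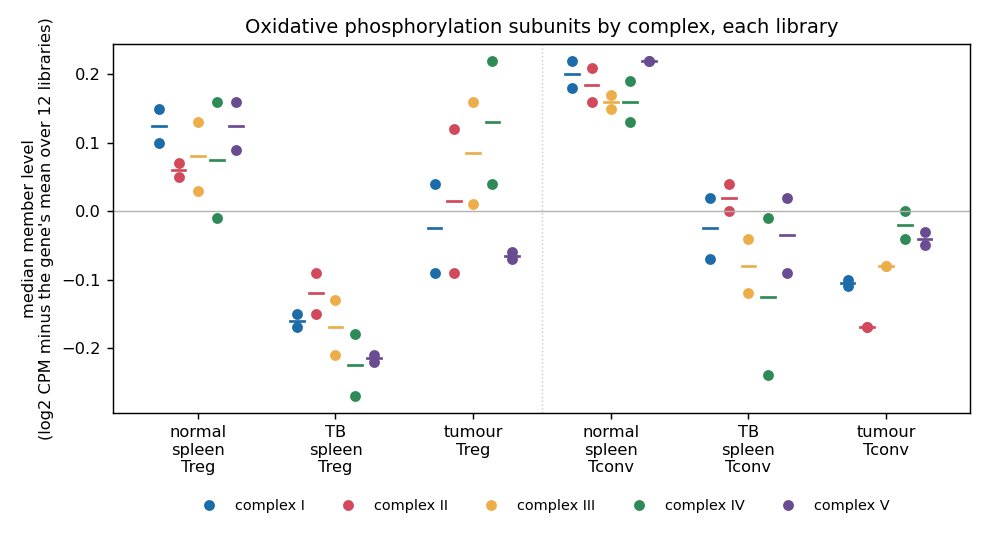
Median level of the tested members of each complex in each library, as log2 CPM minus the gene's own mean over the 12 libraries (y axis), by group (x axis). Points are libraries, short bars are means of the 2 libraries of a group, and colours are complexes; every complex has its highest group mean in normal spleen Tconv and lies below 0 in both TB spleen Treg libraries.

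The first comparison asked how spleen T cells of TB mice differ from those of normal mice. In Treg, 34 of the 75 tested members were lower in TB spleen and none was higher (edgeR quasi-likelihood test with Benjamini-Hochberg adjustment over 13509 genes, threshold 0.05). Over all tested genes 8.5% were lower and 6.8% higher. The median log2 fold change was -0.30 for the members and 0.00 for all genes, and 71 of the 75 members had a negative value. The changes were small: no member changed 1.5-fold or more. In 68 of the 75 members both TB libraries lay below both normal libraries, as they did in 32.1% of all tested genes.

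By complex, 15 of 35 complex I members were lower in TB spleen Treg, 1 of 4 in complex II, 2 of 8 in complex III, 6 of 11 in complex IV and 10 of 17 in complex V. Ndufa3, an accessory subunit of complex I, was at 56.9 and 58.2 CPM in normal and 39.8 and 37.9 CPM in TB spleen Treg. The groups did not overlap, and the log2 fold change of -0.57 ± 0.08 (SE; adjusted p = 0.00124) was the lowest among the called members. Among core subunits of the electron path, Ndufs7 had a log2 fold change of -0.40 ± 0.11 (adjusted p = 0.0331). Ndufs1 had -0.15 ± 0.06 (adjusted p = 0.15) and Ndufv1, the NADH-binding subunit, -0.10 ± 0.10 (adjusted p = 0.537), and neither passed the test.

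In complex IV, Cox6a1, the non-muscle form of subunit 6a, was at 112 and 121 CPM in normal and 83.4 and 78.3 CPM in TB spleen Treg (-0.53 ± 0.09, adjusted p = 0.00323). In complex V, Atp5b was at 764 and 785 CPM against 587 and 555 CPM (-0.44 ± 0.08, adjusted p = 0.00337). Its partner in the catalytic head, Atp5a1, was at 908 and 926 CPM against 747 and 729 CPM (-0.31 ± 0.07, adjusted p = 0.0111). For all 3 genes both TB libraries were below both normal ones. Among 5 subunits of the F1 head (Atp5a1, Atp5b, Atp5c1, Atp5d and Atp5e), 4 were called lower, and Atp5e had -0.42 ± 0.16 (adjusted p = 0.0998). Of 10 subunits of the membrane part and stalk, 6 were called lower, with Atp5j2 at -0.49 ± 0.09 and Atp5o, the stalk subunit also called OSCP, at -0.44 ± 0.07. In complex III, Uqcrq had -0.48 ± 0.09 and Uqcrc1, a core protein, -0.33 ± 0.09. In complex II, Sdhc, a membrane anchor, had -0.31 ± 0.09 and was the member called.

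In Tconv, 25 of the 75 members were lower in TB spleen and none was higher, where 7.49% of all tested genes were lower and 9.74% higher. The median was -0.24 for the members and 0.00 for all genes, and 71 members were again negative. By complex, 10 of 35, 1 of 4, 2 of 8, 4 of 11 and 8 of 17 members of complexes I to V were lower. Cox6a1 was at 134 and 134 CPM in normal and 85.7 and 105 CPM in TB spleen Tconv (-0.49 ± 0.09, adjusted p = 0.00401). Atp5k, subunit e of ATP synthase, was at 49.0 and 49.5 CPM against 30.3 and 39.0 CPM (-0.50 ± 0.11, adjusted p = 0.00864). The 2 TB libraries of Atp5k and Cox6a1 were far apart, with replicate 1 the lower, yet both lay below the normal libraries. Atp5b was at 877 and 928 CPM against 675 and 725 CPM (-0.37 ± 0.08, adjusted p = 0.00752). Sdha, the catalytic flavoprotein of complex II, was the member of that complex called here, at -0.21 ± 0.06 (adjusted p = 0.0409).

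In Treg and Tconv 19 members were lower in TB spleen, which is 55.9% of the Treg list and 76% of the Tconv list. Of all tested genes 4.42% were lower in both. Among them are Atp5a1, Atp5b, Atp5c1, Atp5f1, Atp5j, Atp5j2, Atp5k, Atp5o, Cox6a1, Cox6b1, Cox7a2, Cox7b, Ndufa3, Ndufa4, Ndufa8, Ndufa9, Ndufa13 and Uqcrq. In all, 70 of 75 members had a negative log2 fold change in both cell types, against 35.6% of all tested genes. Across the 75 members the 2 sets of log2 fold changes, which share no library, had a Pearson r of 0.50 and a Spearman rho of 0.597 (given as a description, since members are not replicates). When the difference between the 2 changes was tested, 0 of the 75 members passed, 2 had an unadjusted p under 0.05, and DESeq2 also called 0. Over all tested genes 0.851% passed that test.

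**Figure D2:**
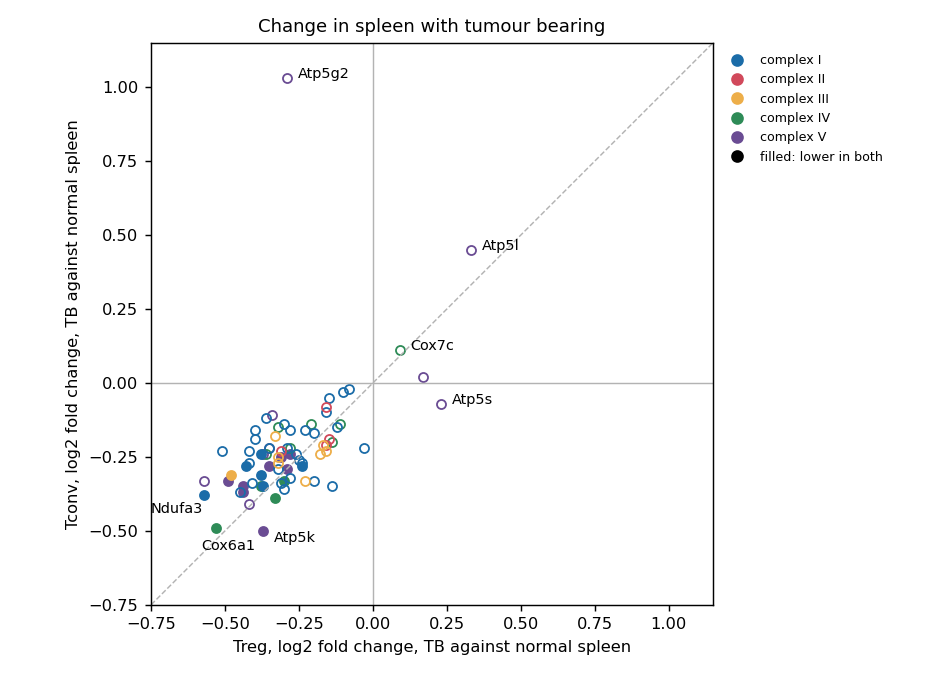
Log2 fold change between TB and normal spleen of each of the 75 tested members in Treg (x axis) and in Tconv (y axis). Colours are complexes, filled points are the 19 members lower in both cell types and the dashed line marks equal change; 70 of 75 points lie below 0 on both axes, and the other 5 are Atp5g2, Atp5l, Atp5s, Cox7c and Atp5sl (the last not named in the plot).

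Members named for complexes I, III, IV and V by the size of their change also included, in Treg, Ndufa11 (-0.51 ± 0.10), Ndufa13 (-0.43 ± 0.09), Cox7a2 (-0.38 ± 0.08) and Cox4i1 (-0.36 ± 0.10). In Tconv they included Ndufa3 (-0.38 ± 0.08), Ndufa1 (-0.36 ± 0.11), Ndufa9 (-0.35 ± 0.09), Cox6b1 (-0.39 ± 0.10), Cox7a2 (-0.35 ± 0.08), Atp5o (-0.35 ± 0.07), Uqcrq (-0.31 ± 0.09) and Uqcrc2 (-0.24 ± 0.07).

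The call of single members in spleen rested on few libraries. With 1 library left out at a time, the number lower in Treg ran from 7 (without normal spleen Treg replicate 2) to 44, and was 12 and 13 without TB spleen Treg replicate 2 or 1 and 21 without normal spleen Treg replicate 1. The calls of Atp5b, Atp5j, Atp5o, Cox6a1 and Ndufa3 were among those kept whichever library was left out. In Tconv it ran from 2 (without normal spleen Tconv replicate 2) to 35, with 3 without TB spleen Tconv replicate 1 and 6 without normal spleen Tconv replicate 1, and Cox6a1 was the member called in every fit. In Treg the highest adjusted p with 1 library left out was 0.0981 for Atp5a1, 0.194 for Cox4i1, 0.18 for Uqcrc1, 0.113 for Cox7a2, 0.0686 for Ndufa13, 0.0644 for Atp5j2 and 0.0502 for Uqcrq (without normal spleen Treg replicate 2), 0.162 for Ndufs7 and 0.0583 for Ndufa11 (without TB spleen Treg replicate 2) and 0.155 for Sdhc (without TB spleen Treg replicate 1). In Tconv it was 0.254 for Sdha, 0.245 for Uqcrq, 0.148 for Uqcrc2 and 0.0887 for Atp5b (without normal spleen Tconv replicate 2). It was 0.0729 for Atp5k, 0.0826 for Ndufa3, 0.265 for Ndufa1, 0.174 for Ndufa9, 0.18 for Cox6b1, 0.12 for Cox7a2 and 0.0668 for Atp5o without TB spleen Tconv replicate 1. The median stayed between -0.34 and -0.27 in Treg and between -0.30 and -0.21 in Tconv. Scaled by library totals, 23 members were lower and 1 higher in Treg and 11 lower in Tconv, with medians of -0.24 and -0.16.

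Other short and abundant transcripts moved with the members in spleen. Members have a median exon length of 1.76 kb, against 4.39 kb for all tested genes. Among 176 other genes of at most 1.5 kb with a mean log2 CPM of 5 or more, 35.2% were lower in TB spleen Treg with a median of -0.24, and 30.7% in TB spleen Tconv with a median of -0.21. The 25 members of that length and level had 56% lower with a median of -0.30 in Treg, and 48% with -0.28 in Tconv. Among 877 other genes of 1.5 to 3 kb at that level the medians were -0.15 and -0.13, against -0.29 and -0.24 for the 19 members of that class. The summed level of 5 T cell markers was also lower in TB spleen, at 3927 and 3624 CPM against 4438 CPM in both normal libraries in Treg, and at 4197 and 4443 CPM against 5128 and 5031 CPM in Tconv. In TB spleen Tconv, 4 Treg markers summed to 163 and 195 CPM against 86.6 and 75.2 CPM, and 4 NK cell markers to 43.3 and 74.99 CPM against 21.8 and 19.8 CPM. The part of transcript length and of these markers in the spleen result was not tested.

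The second comparison set tumour Treg against Treg from the spleen of the same kind of mice. Of the 75 members 35 were higher in the tumour and 3 were lower. That share called, 50.7%, is below the 61.4% of all tested genes, of which 32.8% were higher and 28.7% lower, while the direction was mostly one way. The median was 0.20 for the members and 0.02 for all genes. By complex, 14 of 35 members of complex I, 2 of 4 of complex II, 4 of 8 of complex III, 7 of 11 of complex IV and 8 of 17 of complex V were higher. With library totals in place of TMM scaling, 14 were higher and 10 lower, and the medians were 0.04 for the members and -0.14 for all genes. The TB spleen Treg libraries enter this comparison and the one with normal spleen. By group means, tumour Treg was above both spleen Treg groups in 24 members, between them in 39 and below both in 12. An increase from TB spleen is therefore mostly not a level above normal spleen. The same split over all tested genes was not counted.

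The members with the largest increase were Uqcrfs1, the Rieske iron-sulfur protein of complex III, and Cox5a, a structural subunit of complex IV. Uqcrfs1 was at 141 and 95.1 CPM in tumour Treg, 65.2 and 60.5 CPM in TB spleen Treg and 70.2 and 77.2 CPM in normal spleen Treg. Both tumour libraries were above all 4 spleen libraries, though they differed from each other by more than the spleen groups did from one another. The log2 fold change from TB spleen was 0.91 ± 0.14 (SE; adjusted p = 0.000118). Cox5a was at 106 and 77.3 CPM in tumour Treg, against 49.4 and 55.1 CPM in TB and 61.0 and 65.8 CPM in normal spleen Treg (0.81 ± 0.12, adjusted p = 0.000118). Again replicate 1 was the higher of the tumour libraries and both were above every spleen Treg library.

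In complex IV, Cox6c rose from 57.3 and 61.1 CPM to 93.2 and 80.1 CPM (0.55 ± 0.09, adjusted p = 0.000144), Cox7a2 from 48.0 and 52.1 to 74.0 and 66.0 CPM (0.48 ± 0.08) and Cox8a from 99.2 and 98.2 to 138 and 132 CPM (0.45 ± 0.09). Cox4i1 rose by 0.43 ± 0.10 (adjusted p = 0.00314), and Cox5b had 0.06 ± 0.13 (adjusted p = 0.712) with tumour libraries of 34.9 and 46.8 CPM on either side of the spleen ones. The member of complex IV that fell was Cox7a2l, from 253 and 224 CPM in TB spleen to 161 and 188 CPM in the tumour (-0.45 ± 0.10, adjusted p = 0.00167). Both tumour libraries were below all 4 spleen Treg libraries.

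In complex I, 13 of 28 tested accessory subunits and 1 of 7 core subunits were higher in tumour Treg. Ndufs4, an accessory subunit whose loss causes a Leigh-like encephalopathy in mice, was at 61.9 and 53.8 CPM in the tumour and 40.2 and 44.0 CPM in TB spleen (0.46 ± 0.09, adjusted p = 0.001). Ndufb7 was at 79.0 and 77.1 CPM against 58.8 and 57.9 CPM (0.42 ± 0.07, adjusted p = 0.000383), and Ndufc1 rose by 0.43 ± 0.16. These accessory subunits sit around the core and serve its assembly and stability. The core subunits Ndufs1, Ndufs7 and Ndufv1 had -0.16, 0.04 and 0.15 and none passed the test, and Ndufs8, an iron-sulfur subunit, was the core member called (0.20 ± 0.08, adjusted p = 0.0402). Ndufa5 was the complex I member called lower, at -0.31 ± 0.11 (adjusted p = 0.0231). Whether core and accessory subunits differ was not tested.

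Complex II held members called in both directions. Sdhb, the iron-sulfur subunit, was at 140.1 and 143 CPM in tumour Treg and 105 and 113 CPM in TB spleen Treg (0.38 ± 0.07, adjusted p = 0.000429). Sdhd, a membrane anchor, rose by 0.37 ± 0.08 (adjusted p = 0.00219). Sdha fell, from 302 and 291 CPM to 264 and 256 CPM (-0.19 ± 0.06, adjusted p = 0.0222), and Sdhc had 0.06 ± 0.09 (adjusted p = 0.577). In complex III, Uqcrb rose by 0.41 ± 0.10, Uqcrq by 0.26 ± 0.09 and Uqcrc1 by 0.24 ± 0.09, beside Uqcrfs1. Uqcrc2, the other core protein, had 0.10 ± 0.07 (adjusted p = 0.208).

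In complex V, 4 of the 5 F1 subunits rose from TB spleen: Atp5e by 0.60 ± 0.16, Atp5d by 0.28 ± 0.08, Atp5c1, the rotating gamma subunit, by 0.27 ± 0.06 and Atp5b by 0.24 ± 0.08. None of these was above normal spleen Treg in both tumour libraries. Atp5b was at 724 and 625 CPM in the tumour against 764 and 785 CPM in normal spleen Treg. Atp5d was at 210 and 200 CPM against 214 and 224 CPM, and Atp5c1 and Atp5e overlapped normal spleen. Atp5a1 did not pass the test, with 785 and 716 CPM in the tumour and 747 and 729 CPM in TB spleen (0.02 ± 0.07, adjusted p = 0.785). Atp5g3, 1 of 3 genes for the c subunit of the rotor ring, rose by 0.41 ± 0.12 and Atp5k by 0.37 ± 0.11.

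Tumour Treg replicate 1 was the higher of its pair for many of these genes: Atp5e was at 117 and 73.3 CPM, Atp5g3 at 173 and 122 CPM and Cox4i1 at 302 and 234 CPM in replicates 1 and 2. Without it 23 members were higher and 2 lower. Without TB spleen Treg replicate 1 or 2 there were 22 and 21 higher. The calls of Uqcrfs1, Uqcrb, Cox4i1, Cox5a, Cox6c, Cox7a2, Cox7a2l, Cox8a, Ndufa11, Ndufb7, Ndufb8, Ndufb9, Ndufs4, Sdhb, Sdhd and Atp5c1 were kept whichever library was left out. Among members named above, the highest adjusted p with 1 library left out was 0.401 for Ndufc1, 0.334 for Uqcrc1, 0.207 for Ndufs8, 0.166 for Atp5b, 0.136 for Atp5g3 and 0.0947 for Atp5e, each without tumour Treg replicate 1. It was 0.178 for Ndufa5, 0.12 for Sdha and 0.108 for Uqcrq without TB spleen Treg replicate 1, and 0.0834 for Atp5d and 0.094 for Atp5k without TB spleen Treg replicate 2. The 9 macrophage and monocyte markers were all higher in tumour Treg, as were 4 of 4 tested fibroblast and 6 of 7 lung epithelial markers, and their part in these increases was not tested. Among the 176 other short and abundant genes 48.3% were higher, with a median of 0.22.

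**Figure D3:**
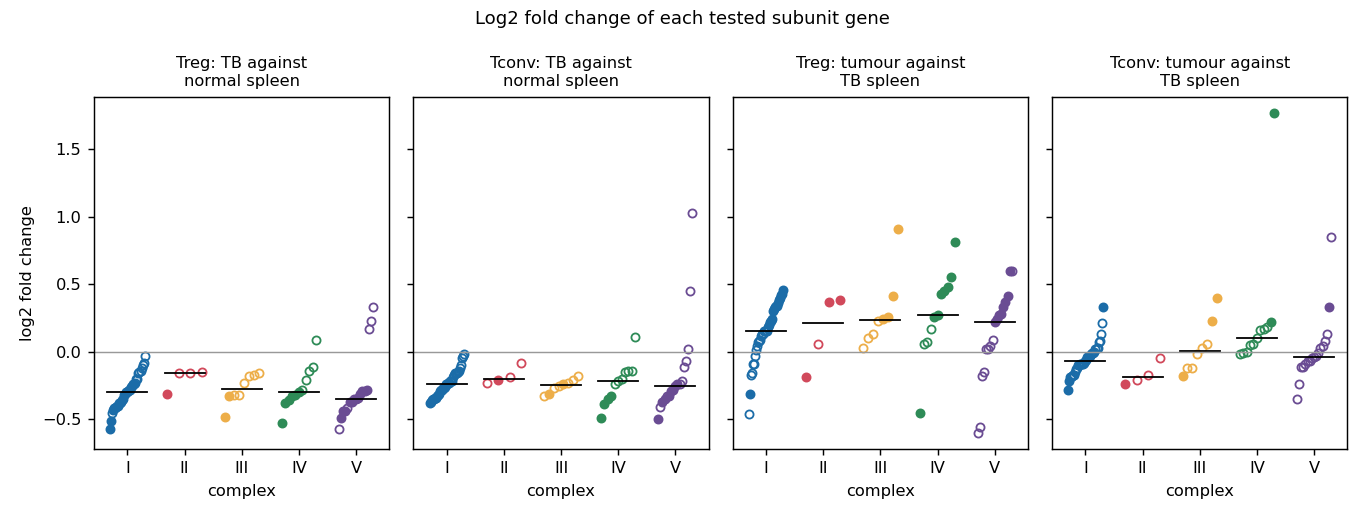
Log2 fold change (y axis) of each tested member by complex (x axis) in the 2 comparisons of TB with normal spleen and the 2 of tumour with TB spleen. Each point is a gene, ordered by value within its complex, filled where the adjusted p is under 0.05, and black bars are medians; filled points lie below 0 in both spleen panels, mostly above 0 in the tumour Treg panel and on both sides of 0 in the tumour Tconv panel.

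In Tconv the tumour and TB spleen differed in few members: 6 of 75 were higher in the tumour and 4 lower, or 13.3%, while 49.1% of all tested genes were called (26.4% higher, 22.8% lower). The median was -0.04 for the members and 0.00 for all genes. Scaled by library totals 3 were higher and 18 lower, with medians of -0.15 and -0.11. Uqcrfs1 was at 109 and 103 CPM in tumour and 80.9 and 80.4 CPM in TB spleen Tconv (0.40 ± 0.14, adjusted p = 0.0306), and in normal spleen Tconv at 97.1 and 106 CPM, which overlaps the tumour. Ndufa6 rose by 0.33 ± 0.08 and Atp5sl by 0.33 ± 0.07. Cox7c had the largest value, 1.77 ± 0.46 (adjusted p = 0.00691), from 11 and 12 counts in TB spleen and 34 and 42 in the tumour, within the limit on its counting given above. Uqcrh and Cox7a2 rose by 0.23 ± 0.08 and 0.22 ± 0.08.

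Among those lower in tumour Tconv were electron-carrying subunits of complexes I and II. Ndufs1, which holds iron-sulfur clusters of complex I, went from 86.0 and 84.2 CPM to 72.1 and 68.7 CPM (-0.28 ± 0.06, adjusted p = 0.00389). Sdha went from 325 and 353 CPM to 295 and 280.3 CPM (-0.24 ± 0.06, adjusted p = 0.00942). Sdha thus fell from TB spleen to tumour in both cell types, with the tumour libraries below all spleen libraries of the same cell type. Ndufa8, an accessory subunit, fell as well (-0.22 ± 0.07), as did the core protein Uqcrc2 (-0.18 ± 0.07). The calls of Ndufs1, Ndufa6, Atp5sl and Cox7c held whichever library was left out. The highest adjusted p was 0.116 for Uqcrfs1 and 0.0764 for Sdha (without TB spleen Tconv replicate 2), 0.311 for Cox7a2 and 0.12 for Ndufa8 (without tumour Tconv replicate 2), and 0.178 for Uqcrh and 0.149 for Uqcrc2 (without tumour Tconv replicate 1). Without tumour Treg replicate 1 or 2 the number lower was 8 and 7.

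The change from TB spleen to tumour was then compared between the cell types. In 14 members the change was more positive in Treg and in 2 more negative, where 11.7% and 13.1% of all tested genes were. The median difference was 0.23 for the members and -0.03 for all genes. Cox5a stood out at 0.83 ± 0.17 (adjusted p = 0.00498). In Tconv it was at 59.4 and 64.6 CPM in the tumour and 59.5 and 66.0 CPM in TB spleen. Ndufb7 followed at 0.61 ± 0.11 (adjusted p = 0.00159), with 47.8 and 49.5 CPM in tumour Tconv against 53.2 and 57.9 CPM in TB spleen Tconv. Sdhd had 0.55 ± 0.12, Ndufs4 0.55 ± 0.13, Ndufa8 0.45 ± 0.10 and Sdhb 0.43 ± 0.10. Sdhb was at 97.7 and 102 CPM in tumour Tconv and 105 and 103 CPM in TB spleen Tconv, so in Tconv its libraries were lower in the tumour without overlap but the change did not pass the test (-0.05 ± 0.07, adjusted p = 0.548).

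The opposite difference was seen in Cox7a2l, at -0.60 ± 0.14 (adjusted p = 0.00749), and Atp5sl, at -0.48 ± 0.10 (adjusted p = 0.00587). Cox7a2l was at 394 and 327 CPM in tumour and 329.6 and 317 CPM in TB spleen Tconv, a difference that did not pass the test (0.16 ± 0.10, adjusted p = 0.205), whereas it fell in Treg. Uqcrfs1, which rose in both cell types, had 0.51 ± 0.19 (adjusted p = 0.0735). The calls of Cox5a, Cox7a2l, Ndufa8, Ndufb7, Ndufs4, Sdhb, Sdhd and Atp5sl were kept whichever library was left out. The number more positive in Treg ran from 6 (without TB spleen Tconv replicate 2) to 29 (without tumour Treg replicate 2), and was 7 without TB spleen Treg replicate 1. Of the 176 other short and abundant genes 34.7% were more positive in Treg, with a median difference of 0.24.

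**Figure D4:**
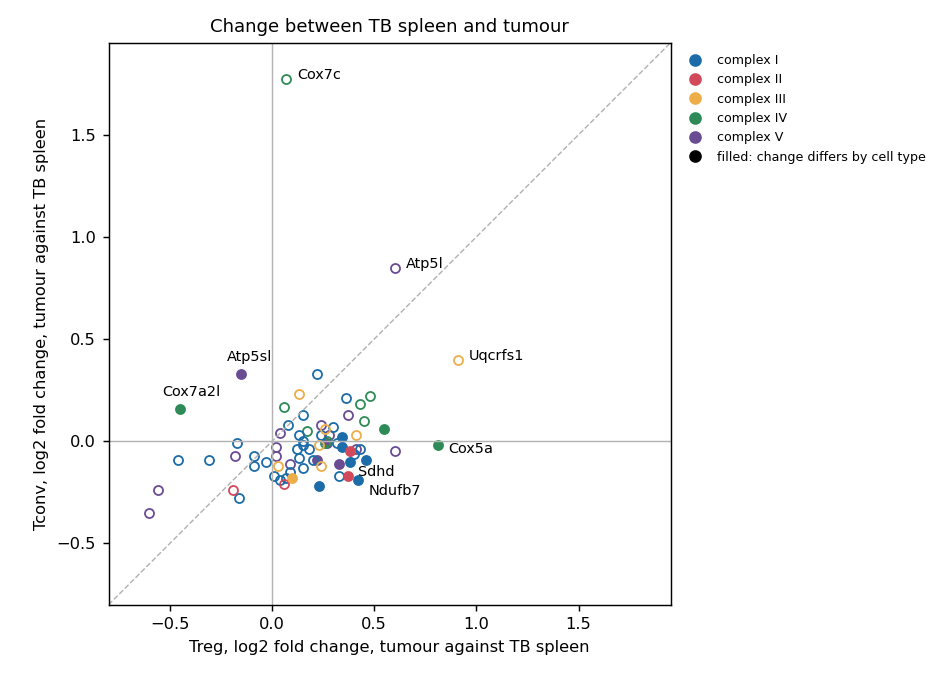
Log2 fold change from TB spleen to tumour of each of the 75 tested members in Treg (x axis) and Tconv (y axis). Colours are complexes, filled points are the 16 members whose change differed between the cell types and the dashed line marks equal change; 14 filled points lie to the right of the line and Cox7a2l and Atp5sl to the left.

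Treg and Tconv were compared at each site. In the tumour 22 of 75 members were higher in Treg and 11 lower (27.2% and 26.7% of all tested genes, 53.9% in either direction), with a median of 0.08. In TB spleen 0 were higher and 15 lower (21% and 19.4% of all genes, 40.3% in either direction), with a median of -0.15. In normal spleen 5 were higher and 15 lower (21.8% and 18.7%, 40.6% in either direction), with a median of -0.13, and scaled by library totals 8 were higher and 6 lower with a median of -0.07. Without 1 library these counts ran from 22 to 37 in the tumour, from 7 to 25 in TB spleen (7 without TB spleen Tconv replicate 2, 25 without tumour Treg replicate 1 or 2) and from 5 to 24 in normal spleen (5 without normal spleen Tconv replicate 2 or Treg replicate 1, and 8 without Tconv replicate 1 or Treg replicate 2). In TB spleen 8 were called without Treg replicate 2 and 9 without Treg replicate 1. In the tumour 22 were called without Tconv replicate 1, the lowest, and 23 without Treg replicate 1.

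Other short and abundant genes differed between the cell types of the tumour as well. Of the 176 other genes of at most 1.5 kb with a mean log2 CPM of 5 or more, 51.1% were higher and 26.1% lower in tumour Treg than in tumour Tconv, with a median of 0.23. The 25 members of that class had 36% higher and 20% lower, with a median of 0.11. In TB spleen 21% of the 176 were higher and 33.5% lower, and in normal spleen 23.3% and 31.8%, with medians of -0.12 and -0.08. Markers of other cells differed too. The 5 dendritic cell markers summed to 32.1 and 24.9 CPM in tumour Treg and 5.41 and 4.63 CPM in tumour Tconv, with 2 of 4 tested called higher and 1 lower. The 7 lung epithelial markers summed to 161 and 106 CPM against 78.8 and 88.3 CPM, with 2 called higher. None of the 9 macrophage and monocyte markers and 4 tested fibroblast markers was called in the tumour. Some marker sums differed in spleen too. The lung epithelial markers summed to 25.6 to 28.3 CPM in spleen Treg and 2.0 to 4.27 CPM in spleen Tconv. Their sum was thus higher in Treg at each site and not only in the tumour. Across all 3 sites, 5 B cell markers summed to 17.0 to 26 CPM in Treg and 1.18 to 2.06 CPM in Tconv. In TB spleen 4 NK cell markers summed to 6.70 and 6.60 CPM in Treg and 43.3 and 74.99 CPM in Tconv. The part of transcript length and of these markers in the differences between Treg and Tconv was not tested.

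The 2 members lower in Treg at all 3 sites with any library left out were Cox7a2l and Ndufa10. Cox7a2l was at 260.2 and 265 CPM in Treg and 371 and 372 CPM in Tconv of normal spleen. The log2 fold change of Treg against Tconv was -0.50 ± 0.10 in normal spleen, -0.44 ± 0.10 in TB spleen and -1.04 ± 0.10 in the tumour (adjusted p = 0.00121, 0.00304 and 1.92e-06). All 6 Treg libraries, at 161 to 265 CPM, were below all 6 Tconv libraries, at 317 to 394 CPM. Ndufa10, an accessory subunit of the membrane arm of complex I, was at 81.8 and 83.7, 70.8 and 72.9 and 68.7 and 66.6 CPM in Treg of normal spleen, TB spleen and tumour. In Tconv it was at 103 and 115, 96.3 and 96.9 and 92.1 and 85.5 CPM. The log2 fold changes of Treg against Tconv were -0.40 ± 0.07, -0.43 ± 0.07 and -0.39 ± 0.07 in normal spleen, TB spleen and tumour (adjusted p = 0.00051, 0.000304 and 0.000399). The test of the difference between tumour and TB spleen gave 0.03 ± 0.10 (adjusted p = 0.846).

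Other members were higher in Treg of the tumour. Ndufb7 had 0.68 ± 0.08 in the tumour (adjusted p = 7.93e-06), 0.07 ± 0.08 in TB spleen (adjusted p = 0.497) and 0.29 ± 0.07 in normal spleen (adjusted p = 0.00827, and 0.116 without normal spleen Treg replicate 2). Ndufb8, a second membrane-arm accessory subunit, had 0.45 ± 0.07, 0.13 ± 0.07 and 0.37 ± 0.07, with the call in TB spleen missed (adjusted p = 0.192). Cox5a, Ndufb9, Cox6c, Sdhb and Sdhd were higher in tumour Treg by 0.56 ± 0.12, 0.54 ± 0.07, 0.52 ± 0.09, 0.50 ± 0.07 and 0.47 ± 0.09, and none of these 5 passed the test in either spleen. Uqcrfs1 was lower in Treg of normal spleen by a log2 fold change of -0.46 ± 0.14 (adjusted p = 0.0174, and 0.122 without normal spleen Treg replicate 1), and had 0.15 ± 0.14 in the tumour (adjusted p = 0.374). Atp5sl had -0.52 ± 0.07 in the tumour.

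The remaining members named by the size of the difference between Treg and Tconv lie in all complexes. In the tumour Ndufb10 had -0.29 ± 0.08, Ndufa3 -0.22 ± 0.08, Uqcrh -0.23 ± 0.08 and Atp5h, subunit d of the stalk, -0.34 ± 0.07. Atp5l (-1.15 ± 0.45) and Cox7c (-1.09 ± 0.43), with the low counts described above, rested on few counts. Atp5l had 15 and 34 counts in Treg against 44 and 50 in Tconv of the tumour, and Cox7c 17 and 24 against 34 and 42. Higher in tumour Treg were Uqcr11 (0.39 ± 0.12), Uqcrb (0.33 ± 0.10), Uqcrc1 (0.31 ± 0.09), Cox6b1 (0.32 ± 0.10), Atp5d (0.35 ± 0.08), Atp5g3 (0.32 ± 0.12) and Atp5j2 (0.25 ± 0.09). In TB spleen, Treg were lower for Ndufa2 (-0.35 ± 0.12), Ndufa3 (-0.32 ± 0.08), Sdhc (-0.33 ± 0.09), Sdha (-0.19 ± 0.06), Atp5h (-0.43 ± 0.07), Atp5b (-0.29 ± 0.08) and Atp5f1 (-0.26 ± 0.07). In normal spleen they were lower for Ndufb2 (-0.44 ± 0.16), Ndufa2 (-0.36 ± 0.12), Sdhc (-0.26 ± 0.08), Sdha (-0.25 ± 0.06), Uqcrc2 (-0.23 ± 0.07), Atp5k (-0.30 ± 0.11), Atp5f1 (-0.26 ± 0.06) and Atp5b (-0.22 ± 0.08). Ndufa13 (0.26 ± 0.09) and Atp5d (0.24 ± 0.08) were higher in normal spleen Treg. Of these differences, those of Atp5h and Atp5d in the tumour and Atp5h in TB spleen were called whichever library was left out, and the others were lost at least once, at adjusted p up to 0.663 (Atp5g3 in the tumour, without tumour Treg replicate 1).

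**Figure D5:**
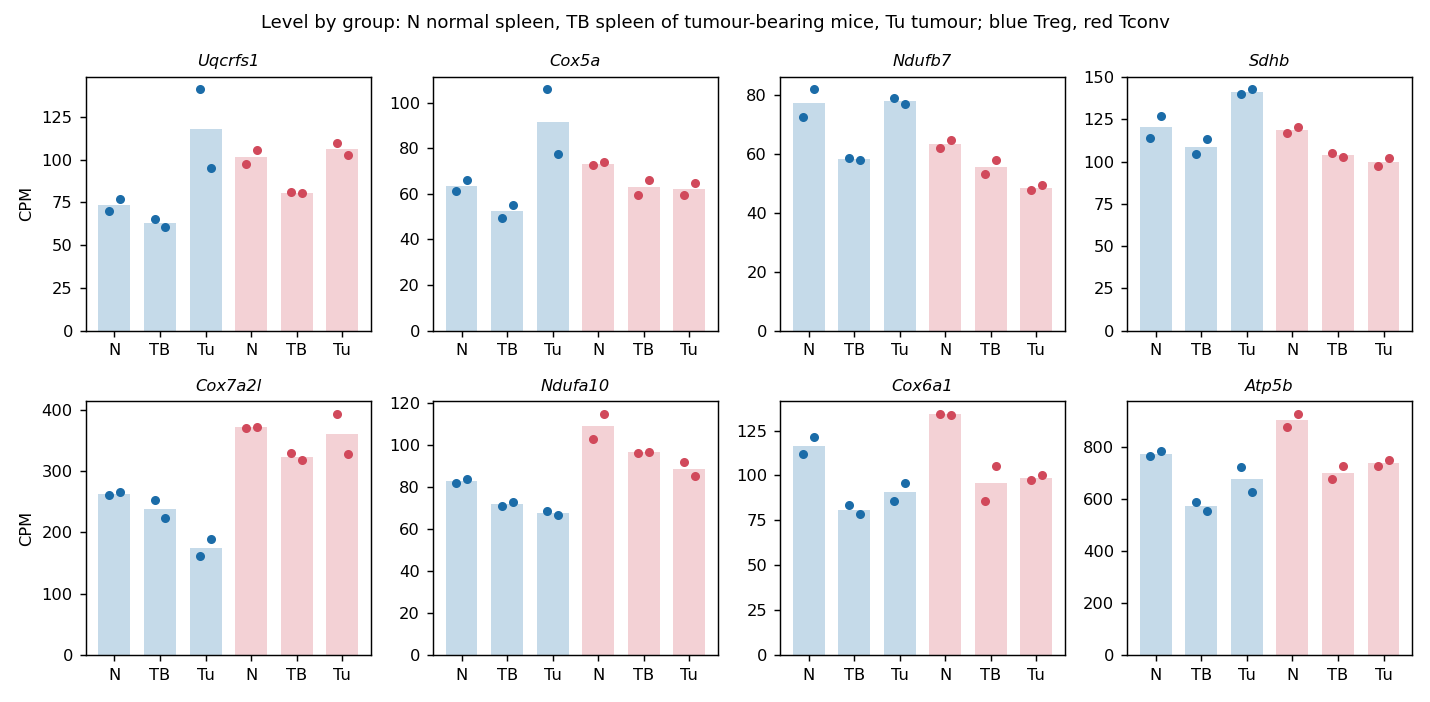
Level in CPM (y axis, from 0) of 8 members in every library, by site (x axis) and cell type (blue Treg, red Tconv). Points are libraries and bars are means of 2; Cox5a is highest in both tumour Treg libraries, Uqcrfs1 is highest in tumour Treg replicate 1 while replicate 2 (95.1 CPM) lies below both tumour Tconv libraries, Cox7a2l and Ndufa10 are lower in Treg than in Tconv at each site, and Cox6a1 and Atp5b are highest in normal spleen.

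In the sets for subunits 4 and 6a and for the c subunit of ATP synthase, 1 form held nearly all counts. The set of Cox7a1, Cox7a2 and Cox7a2l differed, with Cox7a2 at 48.0 to 74.0 CPM and Cox7a2l at 161 to 394 CPM. Cox4i1 had 197 to 302 CPM while Cox4i2 had at most 2 counts, and Cox6a1 had 78.3 to 134 CPM while Cox6a2 had at most 4 counts. Of the 3 genes for the c subunit of ATP synthase, which encode the same mature protein, Atp5g3 had 109 to 173 CPM, Atp5g1 2.97 to 7.29 CPM and Atp5g2 under 1 CPM. Atp5g1 and Atp5g2 share sequence with annotated copies, so this order is uncertain. For subunits 4 and 6a the major form was the same in all 12 libraries.

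Other genes of the pathway were taken by list, and their counts stand beside the 32.8% of all tested genes higher and 28.7% lower in tumour Treg than in TB spleen Treg, and the 26.4% and 22.8% in Tconv. Among 17 tested genes of mitochondrial biogenesis and mitochondrial DNA expression, 1 was higher and 12 lower in tumour Treg than in TB spleen Treg, and in tumour Tconv 2 were higher and 10 lower. Pprc1, a coactivator of the PGC-1 family, was at 23.9 and 30.4 CPM in tumour Treg and 62.0 and 63.7 CPM in TB spleen Treg (-1.21 ± 0.11). Peo1, the mitochondrial DNA helicase Twinkle, fell by 1.38 on the log2 scale and Polrmt, the mitochondrial RNA polymerase, by 0.82. Gabpb1, a subunit of the nuclear respiratory factor GABP, rose by 0.66 ± 0.08 in Treg and by 0.89 ± 0.08 in Tconv. Of 15 assembly factors of complex I, 0 were higher in either cell type of the tumour, 6 were lower in its Treg and 8 in its Tconv, and those of complex III had 0 higher and 3 lower of 5 in each. Assembly factors of complex IV had 6 higher and 3 lower of 22 in Treg and 1 and 8 in Tconv, among them the copper chaperone Cox17 at 0.99 in Treg and 0.41 in Tconv, and Taco1, a translational activator, at -1.01 and -1.57. Complex V assembly factors had 0 higher and 3 lower of 4 in Treg and 0 and 2 in Tconv, and 2 of complex II had 0 and 0, and 0 and 1.

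Of 7 tested carriers and channels of the inner and outer membranes, 5 were higher and 0 lower in tumour Treg, while in Tconv of the tumour 1 was higher and 1 lower. Slc25a4, an ADP/ATP carrier, rose by 0.73 ± 0.09 in Treg and Slc25a3, the phosphate carrier, by 0.63. The tricarboxylic acid cycle and pyruvate dehydrogenase list had 4 higher and 3 lower of 20 in Treg, and 0 and 3 in Tconv. Coq10b, a coenzyme Q-binding protein, had the largest change of these lists, at 177 and 174.9 CPM in tumour Treg against 19.6 and 19.5 CPM in TB spleen Treg (3.17 ± 0.08), and 3.44 ± 0.08 in Tconv. Its list had 4 higher and 3 lower of 13 in Treg and 1 and 3 in Tconv. The list of subunits outside the name rule also holds 2 genes that are not subunits, Cycs (cytochrome c) and Atpif1, an inhibitor of ATP synthase. Its 6 tested genes had 3 higher and 0 lower in Treg and 1 and 0 in Tconv. Among the 3 were Usmg5, a small ATP synthase subunit, at 1.02 ± 0.29, and Cycs at 0.70 ± 0.29. The gene called in Tconv was Atpif1 (0.46 ± 0.13).

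Between TB and normal spleen 8.5% of all tested genes were lower and 6.8% higher in Treg, and 7.49% and 9.74% in Tconv. The tricarboxylic acid cycle list had 0 higher and 7 lower of 20 in Treg and 0 and 6 in Tconv, among them Mdh2, malate dehydrogenase, at -0.36 and -0.35. The biogenesis list had 0 higher and 1 lower of 17 in Treg and 0 and 2 in Tconv. Assembly factors had 0 higher and 2 lower of 15 (complex I), 0 and 0 of 2 (II), 0 and 1 of 5 (III), 0 and 2 of 22 (IV) and 0 and 0 of 4 (V) in Treg. In Tconv these counts were 0 and 3, 1 and 1, 0 and 1, 0 and 1, and 0 and 0. The complex II factors are Sdhaf1, at 0.50 ± 0.11 in Tconv (adjusted p = 0.0111) and 0.29 ± 0.11 in Treg (adjusted p = 0.0827), and Sdhaf2, at -0.24 ± 0.06 in Tconv (adjusted p = 0.0193) and -0.09 ± 0.06 in Treg (adjusted p = 0.344). The coenzyme Q list had 1 higher and 0 lower of 13 in Treg and 2 and 1 in Tconv. The list of subunits outside the name rule, with Cycs and Atpif1, had 0 and 1 of 6, and 0 and 0. The carriers had 0 of 7 called in each cell type.

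Promoters were examined because the members moved together in spleen. Windows from 250 bases before to 50 bases after the start (RefSeq, GRCm38.p6) were found for 69 members, with 75 windows in all. Motifs were searched on both strands, and the letters of the NRF1 matches stand in capitals in the stretches printed here. The NRF1 core with any base at position 5 was in 24% of member windows, against 9.32% of 12925 windows of tested genes and 4.6% of 32851 windows of all genes. The exact palindromic core of NRF1 was in 6.67% against 1.98% and 0.971%, and is contained in the first. The long YY1 motif was in 8% against 1.38% and 0.633%, the shorter AAGATGG, which it contains, in 17.3% against 6.83% and 6.34%, and the ERRA motif TCAAGGTCA in 2.67% against 0.263% and 0.423%. The ETS core CCGGAAG bound by GABPA was in 21.3% against 16.6% and 8.86%, and the E-box CACGTG in 12% against 9.55% and 7.15%. Some genes have more than 1 window. Counted by gene, the E-box was in 10.1% of members against 11.4% of tested genes, the other way round. By gene the ETS core was in 23.2% against 19.4%, and the other motifs also stayed more frequent in members. NRF1, GABP, YY1 and ERRA are factors known to act on respiratory chain genes. Among the 19 members lower in both spleens, 5 of the 16 with a window held the NRF1 core with any base at position 5, and among other tested members 11 of 48 did. For the exact NRF1 core these numbers were 2 of 16 and 3 of 48, for the ETS core 4 and 12, for the long YY1 motif 1 and 4, for the short one 5 and 7, for the ERRA motif 0 and 2 and for the E-box 1 and 6. These counts are a description, and no difference between the groups was tested.

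To show how such matches lie, a stretch of 125 bases ending 51 bases upstream of the start is printed for 4 members, 5′ to 3′ on the gene's strand (GRCm38.p6), with matches of the NRF1 core with any base at position 5, on either strand, in capitals. Cox6a1 was lower in TB spleen in both cell types, Ndufa11 in Treg and Sdha in Tconv, and Sdhd was higher in tumour Treg.
Cox6a1 (chr5:115349009-115349133, minus strand): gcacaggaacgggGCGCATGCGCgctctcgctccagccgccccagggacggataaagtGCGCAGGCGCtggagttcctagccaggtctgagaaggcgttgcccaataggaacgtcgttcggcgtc
Ndufa11 (chr17:56717587-56717711, plus strand): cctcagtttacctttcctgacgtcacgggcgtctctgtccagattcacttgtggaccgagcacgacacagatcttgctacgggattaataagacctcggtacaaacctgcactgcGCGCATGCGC
Sdha (chr13:74350291-74350415, minus strand): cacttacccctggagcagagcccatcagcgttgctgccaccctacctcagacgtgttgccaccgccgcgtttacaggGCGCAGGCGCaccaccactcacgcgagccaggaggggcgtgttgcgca
Sdhd (chr9:50603900-50604024, minus strand): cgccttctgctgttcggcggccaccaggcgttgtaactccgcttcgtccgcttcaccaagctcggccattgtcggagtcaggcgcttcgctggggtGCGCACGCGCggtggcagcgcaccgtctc
Cox6a1 holds 2 matches in this stretch, at 162 and 117 bases upstream, and the first is the exact core. Ndufa11 holds the exact core at 60 bases upstream, Sdha 1 match at 98 (with others nearer the start, not wholly in the stretch) and Sdhd 1 match at 79 bases upstream. A match is a description of letters and not a measured site.

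In the GRCm38 annotation (GENCODE) the members that lead the results lie apart. Uqcrfs1 spans chr13:30540308-30545362 on the minus strand and Cox5a chr9:57521274-57532426 on the plus strand, where 12.8% of its exonic bases overlap the opposite-strand gene Gm26631. Cox7a2l spans chr17:83501918-83517330 (minus), Ndufb7 chr8:83566671-83571626 (plus), Sdhb chr4:140961203-140979193 (plus) and Ndufa10 chr1:92439010-92473860 (minus). Cox6a1 spans chr5:115345642-115348981 (minus) and Atp5b chr10:128083273-128090391 (plus). An opposite-strand gene overlaps exons of 25 of the 84 members and a same-strand gene those of 5, and how strand was treated in counting is not stated in the sources used here. The overlap is over 20% of exonic bases in 2 members, Ndufb6 (39%, with Smim27) and Ndufa13 (30.0%, with Tssk6), both with opposite-strand genes. The values of Ndufa13 given above carry this limit.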

How the data were processed

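The authors deposited raw read counts per gene, 1 column for each of 12 libraries. Per the labels' protocols, libraries were made from total RNA with a stranded mRNA kit. Per the submitters' processing notes STAR, featureCounts and mm10 were used. The sources used here do not state the strand setting or the treatment of reads that fit several genes.

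The deposited counts went unchanged into edgeR 4.0.16 (R 4.3.3): filterByExpr by group (13509 genes kept), TMM factors of 0.942 to 1.07, and 1 quasi-likelihood fit of 6 group means over 12 libraries (6 residual degrees of freedom). F tests were adjusted by Benjamini-Hochberg over all genes tested, at a threshold of 0.05. The SE is the log2 fold change divided by the square root of F. CPM are on TMM-scaled totals. The fit was also run on simulated counts with the same dispersion for all genes and changes in tumour Treg only. That setting is unlike these data, so it does not show how reliable the calls here are. The members, gene lists and tests were chosen with earlier results of these data known.

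Named members were the core subunits, the sets of alternative forms, up to 3 called members per direction, complex and comparison, and every called site difference up to 10 by p; others in the text were chosen after their values were seen. An item that the naming rule covers is not reported here. Alternatives were DESeq2 1.42.0, RLE scaling, library totals, no filter, only the groups compared, replicate blocks and leaving out each library. Exon lengths and coordinates are from GENCODE (GRCm38): 83 members matched by symbol and 1 by synonym. Sharing of sequence was counted as stretches of 50 bases found in transcripts of other genes. Figures were drawn with matplotlib 3.10.9.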

Additional observations from a re-analysis of the deposited data

Results flagged for a closer look

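The change from TB spleen to tumour differed between Treg and Tconv, by a test of the difference itself, in 16 of the 75 tested members (21.3%, against 24.7% of all tested genes). The values are differences of log2 fold changes, Treg minus Tconv. They were more positive in Treg for Cox5a (0.83), Ndufb7 (0.61), Sdhd (0.55), Ndufs4 (0.55), Cox6c (0.49), Ndufa11 (0.48), Ndufa8 (0.45), Atp5j2 (0.44), Sdhb (0.43), Ndufb9 (0.37), Ndufb8 (0.32), Atp5f1 (0.31), Atp5c1 (0.29) and Uqcrc2 (0.28). They were more negative in Treg for Cox7a2l (-0.60) and Atp5sl (-0.48). With 1 library left out, the calls of Cox6c, Ndufa11, Atp5j2, Ndufb9, Ndufb8, Atp5f1, Atp5c1 and Uqcrc2 were each lost at least once, at adjusted p up to 0.0588, 0.106, 0.101, 0.0668, 0.122, 0.12, 0.0871 and 0.145, in the fits without TB spleen Tconv replicate 2 (Cox6c, Ndufa11 and Ndufb9), TB spleen Treg replicate 1 (Atp5j2), tumour Tconv replicate 2 (Ndufb8 and Atp5c1), tumour Tconv replicate 1 (Atp5f1) and TB spleen Treg replicate 2 (Uqcrc2). With groups of 2 libraries no check for a single outlying library within a group was possible.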

How the results depend on the processing

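No member that was called changed sign under any alternative. The number called was within 1.5 times the stated one with DESeq2, RLE scaling or no filter. With library totals it was 24 (of 38) for tumour against TB spleen in Treg, 21 (of 10) in Tconv, and 11 (of 25) for TB against normal spleen in Tconv. In fits of only the groups compared it was 5 for tumour against TB spleen in Tconv, 54 and 38 for TB against normal spleen in Treg and Tconv, 18, 23 and 41 for Treg against Tconv in tumour, TB spleen and normal spleen (33, 15 and 20 otherwise), and 8 for the site difference (16 otherwise). The cause was not tested. With 1 library left out the ranges were 24 to 38 and 7 to 14 for tumour against TB spleen in Treg and Tconv, 7 to 44 and 2 to 35 for TB against normal spleen, 22 to 37, 7 to 25 and 5 to 24 for Treg against Tconv, and 8 to 31 for the site difference. Of the calls, 16 of 38 and 4 of 10, 6 of 34 and 1 of 25, 15 of 33, 5 of 15 and 3 of 20, and 8 of 16, in that order, were kept whichever library was left out. The difference between cell types in the spleen change was called for 0 members in every fit.

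With the title's number as a replicate block, 38 calls of the fit without a block were kept in tumour against TB spleen Treg. In TB against normal spleen 33 were kept in Treg and 23 in Tconv. With the block nested in mouse status, 36, 31 and 22 were kept. The labels state no pairing, same-numbered libraries correlated at -0.13 to 0.15 in their deviations from the group mean, and for normal mice the titles and descriptions give different numbers. Depth limits the members with few counts: Cox7c, Atp5l and Atp5g2 had SEs of 0.43 or more in each comparison.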

Other observations

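Some genes of the wider lists differed between Treg and Tconv at all 3 sites. Idh2, the mitochondrial NADP-dependent isocitrate dehydrogenase, was at 24.3 to 33.3 CPM in the 6 Treg libraries and 60.5 to 80.8 CPM in the 6 Tconv libraries, with log2 fold changes of -1.32 in the tumour, -1.37 in TB spleen and -1.32 in normal spleen (SE 0.10 each, n = 2 per group, edgeR with adjusted p of 1.88e-07 to 2.87e-07). Atpif1, the inhibitor of ATP hydrolysis by ATP synthase, went the other way, at 37.2 to 48.4 CPM in Treg and 16.5 to 25.1 CPM in Tconv (0.88, 1.31 and 1.27). Adck3, a kinase-like protein of coenzyme Q synthesis also called Coq8a, was higher in Treg by 1.71, 1.20 and 1.17 and was also higher in TB than in normal spleen, by 0.82 in Treg and 0.79 in Tconv, where no member was called higher.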
